A study of Mus musculus with 7 samples.

Results

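The 54 genes described here encode axon guidance receptors (30 genes) and ligands (24 genes), out of 21883 protein-coding genes in the RefSeq annotation. They comprise 7 plexins, 2 neuropilins, 3 Robo receptors, 8 EphA receptors, 5 EphB receptors and 5 netrin receptors on the receptor side, and 20 semaphorins, 3 slits and netrin-1 on the ligand side. The ephrins, which are the ligands of the Eph receptors, are not among the 24 and are given with other genes of the pathway. The 54 genes were chosen by gene family. The measurements assigned to a gene are the enriched 5-methylcytosine (5mC) regions that overlap its RefSeq gene body or the 1 kb on either side. All 54 genes held at least 1 such region, and together they held 642 of the 133337 regions of the study.

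The study mapped 5mC by antibody enrichment and sequencing (MeDIP-seq) in primary hippocampal neurons, to define targets of neuronal activity at the level of DNA methylation. The neurons came from C57BL/6J E18.5 embryos and were grown for 11 days in medium that received AraC, a drug that kills dividing cells. One group, of 3 libraries, received 55 mM KCl for 4 h, a treatment that depolarises neurons, and the other group, also of 3 libraries, was untreated. The labels do not state if these are independent cultures. The identity of the cells cannot be checked against marker genes here, since the files hold DNA methylation and no expression.

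Axon guidance steers the growing axon by cues that attract or repel its tip. Semaphorins act through plexins, with neuropilins as co-receptors for most secreted class 3 members, slits act through Robo receptors, netrin-1 attracts through Dcc and repels through Unc5 receptors, and ephrins act through Eph receptor tyrosine kinases. In the hippocampus several of these families also act at synapses and dendritic spines after axons have grown. Cytosine methylation in mammals falls mostly on CpG dinucleotides, and CpG-rich promoters are usually unmethylated.

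KCl replicate 3 stood apart from the other libraries. It held 34834 called intervals (stretches of the genome called as enriched in that library, which the authors' active regions merge over the 6 libraries), against 60949 and 93470 in the other KCl libraries and 72947 to 87302 in the untreated libraries. Its intervals covered 11.3 Mb, against 19.7 to 32.1 Mb elsewhere. How many reads each library had is not given in the sources used here, and the depth is unknown. The comparison of KCl with untreated libraries over all members is given with and without this library.

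None of the 45 member genes with a RefSeq promoter window (250 bases before to 50 after a start) had a 5mC region over a window. Of 17491 protein-coding genes with such windows, 4.16% had one. At that low share few of 45 genes would have one, so the absence does not set the members apart. The member windows numbered 59 and held a median of 18 CpG dinucleotides, against a median of 7 over all 32851 windows. Those windows belong to 27025 genes, which include genes that are not protein-coding, unlike the 17491 above. The shares of all windows given below refer to the same 32851. The 4 windows printed here, from RefSeq on GRCm38.p6, bracket the range of CpG content and belong to genes described further on. Capitals mark each CpG (the letters CG, which read the same on both strands), and 94.6% of all windows held at least 1. Epha8 has the most CpGs of any member, 56, a number reached by 0.195% of all windows. Sema3a has 2, and 23.3% of all windows held 2 or fewer. Ephb1, with 14, is the member with the most regions in its body, and Epha5, with 30, has the fewest regions per 100 kb among the Eph receptors.
Epha8 (chr4:136956767-136957066, minus strand): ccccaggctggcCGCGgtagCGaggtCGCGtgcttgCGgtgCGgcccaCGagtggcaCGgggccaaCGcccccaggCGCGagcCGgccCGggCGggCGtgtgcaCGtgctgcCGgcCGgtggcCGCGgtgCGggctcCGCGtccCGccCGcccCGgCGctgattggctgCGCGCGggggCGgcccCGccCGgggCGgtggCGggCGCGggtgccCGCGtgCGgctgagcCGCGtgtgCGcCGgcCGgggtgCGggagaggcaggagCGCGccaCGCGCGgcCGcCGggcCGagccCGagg
Epha5 (chr5:84417333-84417632, minus strand): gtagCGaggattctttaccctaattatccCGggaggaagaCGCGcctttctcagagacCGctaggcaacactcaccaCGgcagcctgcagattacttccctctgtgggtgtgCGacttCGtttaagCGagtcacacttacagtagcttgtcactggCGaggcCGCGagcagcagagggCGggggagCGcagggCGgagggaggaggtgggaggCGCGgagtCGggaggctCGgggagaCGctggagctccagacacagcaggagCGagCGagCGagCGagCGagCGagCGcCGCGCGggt
Ephb1 (chr9:102354644-102354943, minus strand): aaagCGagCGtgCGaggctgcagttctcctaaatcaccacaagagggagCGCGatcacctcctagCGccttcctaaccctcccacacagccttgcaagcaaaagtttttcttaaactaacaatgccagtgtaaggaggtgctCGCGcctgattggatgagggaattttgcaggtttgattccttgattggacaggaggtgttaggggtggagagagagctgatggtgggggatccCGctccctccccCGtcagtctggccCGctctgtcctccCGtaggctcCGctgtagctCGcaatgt
Sema3a (chr5:13396534-13396833, plus strand): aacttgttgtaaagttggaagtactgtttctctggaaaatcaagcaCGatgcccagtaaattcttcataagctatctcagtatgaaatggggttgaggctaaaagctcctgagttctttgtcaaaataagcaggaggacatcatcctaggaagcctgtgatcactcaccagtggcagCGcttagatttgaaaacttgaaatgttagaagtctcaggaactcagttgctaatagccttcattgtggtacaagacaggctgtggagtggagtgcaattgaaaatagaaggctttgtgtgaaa

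Of the 642 regions, 634 touched the gene body and 8 only the flank, and none overlapped the promoter windows above. The flanks of 1 kb are a small part of the sequence searched, so the split between body and flank was largely fixed by the assignment. In the genes with a window, the nearest region called in all 6 libraries was that of Sema3a, a secreted repellent of many axons, centred 0.902 kb upstream of the start above (chr5:13395570-13396193). Its summit heights were 59, 43 and 30 in KCl libraries and 56, 47 and 42 in untreated libraries, so the groups overlapped. A summit height is the authors' whole-number height of the signal at the peak of a called interval. The RefSeq gene body of Sema3a begins well upstream of this start, so the region lies inside the gene. Epha8, whose window is the richest in CpGs, held the highest region of all members 10.8 kb downstream of its start.

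Members differed 54.3-fold in how densely the 5mC regions lay in them, from 0.672 regions per 100 kb in Nrp1, a co-receptor for class 3 semaphorins, to 36.5 in Epha2, an Eph receptor. The median was 8.45 regions per 100 kb over the 54 members. The receptors had a median of 11.6 and the ligands a median of 8.45, but pooled over all their sequence the order was the other way, with 4.47 regions per 100 kb in receptors (390 regions over 8726 kb) and 6.34 in ligands (252 regions over 3973 kb). The pooled ratio of receptors to ligands was 0.705. Since members are fixed genes and not replicates, these are descriptions without a test.

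Of the 54 members, all had a region and 44 had one called in all 6 libraries. Over all protein-coding genes, 65.3% had a region and 35% had one called in all 6. Members are long, with a median of 125 kb, and longer genes have more room for a region, so the shares are not comparable gene for gene. Of the 642 member regions, 152 (23.7%) had calls in all 6 libraries and 193 (30.1%) in only 1. Over all 133337 regions these shares were close to that, at 20.5% and 29.3%.

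**Figure D1:**
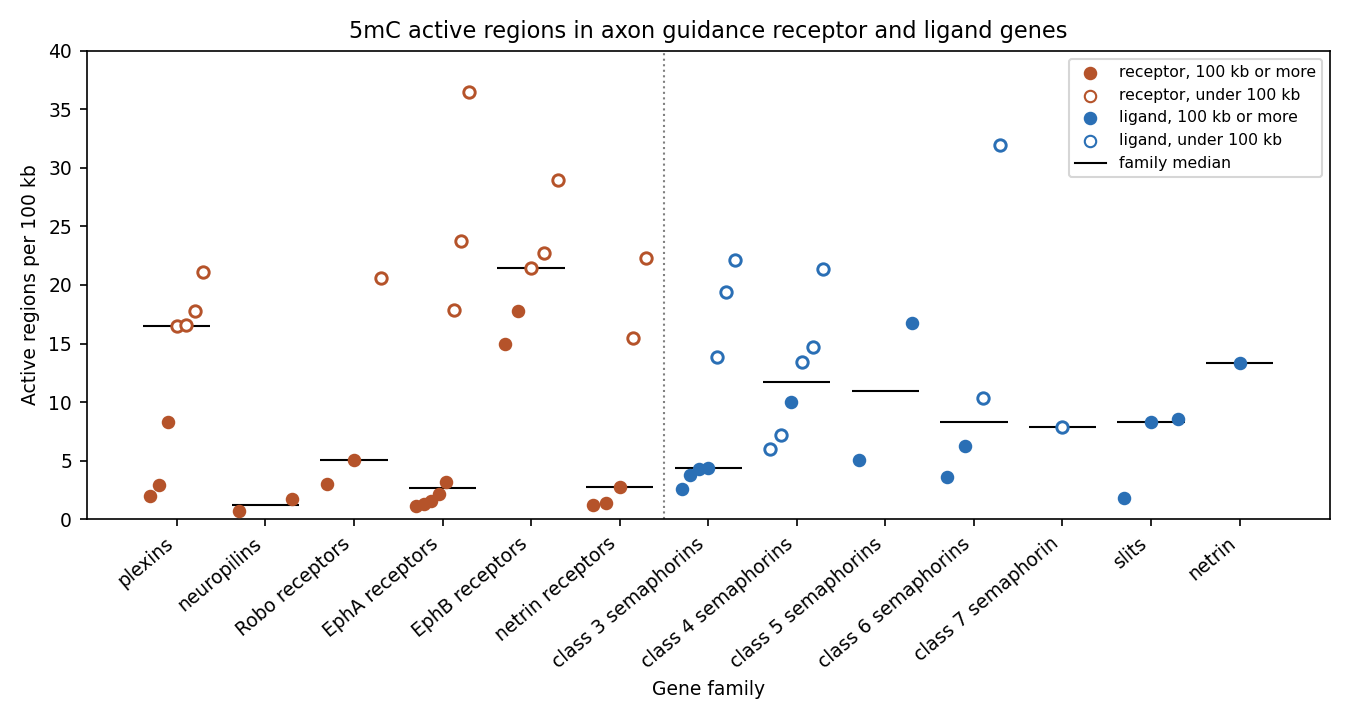
Active 5mC regions per 100 kb (vertical axis) for each of the 54 member genes, by family, receptors left of the dotted line and ligands right of it. Open points are genes under 100 kb, filled points genes of 100 kb or more, and black lines are family medians; EphB receptors sit between 15.0 and 29.0, whereas EphA receptors spread from 1.10 to 36.5.

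The receptor families held both extremes of pooled density among the member families, EphB receptors the highest and neuropilins the lowest (1.13 per 100 kb). The EphB receptors, which bind mainly ephrin-B ligands, had 115 regions and 16.6 per 100 kb, and the EphA receptors, which bind mainly ephrin-A ligands, had 54 regions and 2.64 per 100 kb. In called intervals per 100 kb, EphB receptors had 11.6, 8.10 and 6.37 in KCl libraries and 12.6, 10.7 and 10.9 in untreated libraries. EphA receptors had 2.01, 1.42 and 0.686 in KCl libraries and 1.96, 1.81 and 1.52 in untreated libraries. The EphB values exceeded the EphA values in each of the 6 libraries, and the same genes were counted in all of them.

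Ephb1 had the most regions of any member, 65, of which 17 were called in all 6 libraries. Its 15.0 regions per 100 kb lay at the 97.2nd percentile of genes over 400 kb, against 7.60 per 100 kb in the 500 kb on either side of the gene. Ephb2, which acts at excitatory synapses, had 34 regions (17.8 per 100 kb). Ephb6, whose kinase domain is inactive, had 4 regions (21.4 per 100 kb). Ephb4 had 6 (22.7) and Ephb3 had 6 (29.0). All 5 EphB genes were denser than their neighbourhoods, as were 37 of all 54 members.

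Among the EphA receptors, gene length split the family. Epha2 (28.2 kb) had 11 regions, the highest density of all members. Epha8 (27.4 kb) had 7 regions and 23.8 per 100 kb, and Epha1 (14.8 kb) had 3 and 17.8. The 5 long genes were sparse, at 1.10 in Epha5, 1.33 in Epha4, 1.54 in Epha6, 2.17 in Epha3 and 3.20 in Epha7 (regions per 100 kb). Epha5, a receptor of forebrain neurons, had 2, 1 and 0 intervals in KCl libraries and 3, 0 and 1 in untreated libraries. None of its 4 regions was called in all 6 libraries. Its neighbourhood was sparse too, with 1.60 regions per 100 kb.

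The plexins, which signal for semaphorins, had 56 regions and 5.91 per 100 kb. Plxnb2, a receptor for class 4 semaphorins, was the densest at 21.1 and Plxna2 the sparsest at 2.01. Plxnb1 (17.8), Plxna1 (16.6) and Plxnd1 (16.5) were short and dense, while Plxnc1, the Sema7a receptor, had 8.33 and Plxna4 2.92 regions per 100 kb. The neuropilins were the sparsest family at 1.13 regions per 100 kb. Nrp1 held 1 region, with 0, 0 and 0 intervals in KCl libraries and 1, 1 and 0 in untreated libraries. Nrp2 held 2 regions (1.70 per 100 kb), of which 1 was called in all 6 libraries.

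The Robo receptors, which bind slits, had 103 regions but only 3.96 per 100 kb. Robo2 (1555 kb) and Robo1 (1020 kb) are among the longest members. Robo1 had 52 regions (5.09 per 100 kb), Robo2 47 (3.02) and the short Robo3 had 4 (20.6). Of the netrin receptors, Unc5a (22.3) and Unc5b (15.5) were dense, and Unc5d (2.78), Unc5c (1.35) and Dcc (1.18) were sparse (regions per 100 kb). The density of Dcc, the attractive netrin receptor, was at the 9.69th percentile of genes over 400 kb.

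Among the ligands, the class 3 semaphorins, which are secreted, had 52 regions and 4.57 per 100 kb. Sema3b (22.1), Sema3f (19.4) and Sema3g (13.8) are short genes. The long Sema3d (4.33), Sema3e (4.28), Sema3a (3.74) and Sema3c (2.54) were sparse. The membrane-bound class 4 semaphorins had 26 regions and 10.8 per 100 kb, from 21.3 in Sema4c to 6.00 in Sema4g, with Sema4a (14.7), Sema4f (13.4), Sema4d (9.99) and Sema4b (7.18) between them. Sema4g held a single region, called in 1 library.

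Sema5b, a transmembrane semaphorin with thrombospondin repeats, had 21 regions at 16.8 per 100 kb, and its paralog Sema5a 23 at 5.07. The class 6 semaphorins, which are transmembrane, ranged from 32.0 in Sema6c through 10.4 in Sema6b and 6.25 in Sema6a to 3.62 in Sema6d. Sema7a, a membrane-anchored member, had 2 regions (7.91 per 100 kb). Among the slits, Slit3 had 49 regions (8.32 per 100 kb), Slit1 13 (8.58) and Slit2 6 (1.83). Slit3 had 30, 24 and 15 intervals in KCl libraries and 33, 37 and 24 in untreated libraries, and Slit2 had 3, 0 and 1 in KCl libraries and 2, 4 and 4 in untreated libraries. The groups overlapped for both. Netrin-1 (Ntn1) had 24 regions and 13.4 per 100 kb.

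**Figure D2:**
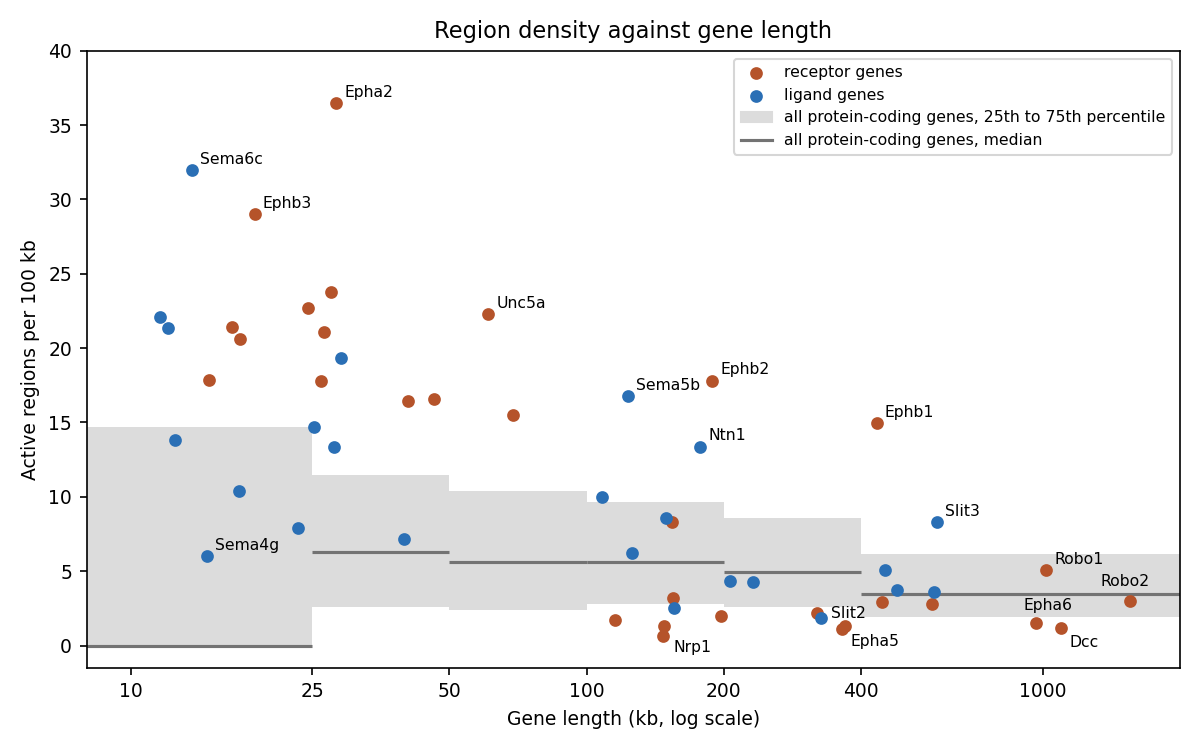
Active regions per 100 kb (vertical axis) against gene length in kb (horizontal axis, log scale) for receptor and ligand genes. Grey bands and lines give the 25th to 75th percentile and the median of all protein-coding genes in 6 length classes (the median is 0 below 25 kb); short receptors lie above the bands and most long receptors below the medians.

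Density was lower in longer member genes, with a Spearman rho of -0.70 over the 54 genes (-0.72 in receptors and -0.72 in ligands). Over all 21883 protein-coding genes rho was 0.22, but these include many short genes without a region, whereas every member had one. The median density was 0 in the 13248 genes under 25 kb. Pooled over their sequence, all protein-coding genes also fell with length, from 9.14 regions per 100 kb under 25 kb to 4.33 over 400 kb. Length is also the divisor of the density, and 1 region weighs more in a short gene, as the single region of Sema4g gave 6.00 per 100 kb. The genes within a family share ancestry and often length, so these values are descriptions. When genes were split at 100 kb, a split chosen after the data were seen, the order of receptors and ligands turned. In genes under 100 kb, 13 receptors had 20.8 regions per 100 kb and 11 ligands had 14.1. In genes of 100 kb or more, 17 receptors had 3.60 and 13 ligands had 5.83. All protein-coding genes had 7.99 and 5.69 in the same length ranges. In called intervals, the short receptors were above the short ligands in 6 of 6 libraries and the long receptors below the long ligands in 6 of 6.

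Against genes of the same length class, 13 of 13 receptors under 100 kb were above the upper quartile, as were 6 of 11 ligands. The classes are broad and do not match genes closely in length. The class under 25 kb had a median density of 0, and that over 400 kb also holds Dcc (1098 kb) and Robo2 (1555 kb). Of the 17 long receptors, 9 were below the lower quartile and 2, Ephb1 and Ephb2, above the upper. Of the 13 long ligands, 2 (Slit2 and Sema3c) were below the lower quartile and 4 (Sema5b, Ntn1, Slit3 and Sema4d) above the upper. The low density of the receptor side as a whole thus came from its long genes, which hold 8283 kb of its 8726 kb.

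The density of a gene also followed its surroundings. Over the 54 genes, density correlated with that of the flanking 500 kb on each side at a Spearman rho of 0.64. Even so, 37 of 54 were denser than their surroundings (19 of 30 receptors and 18 of 24 ligands). Among 48 other genes of the pathway, 22 were denser. The share over all protein-coding genes was not computed, so the count of members has no genome-wide reference. Examples of the contrast with the surroundings are Ephb6 (21.4 against 1.90 regions per 100 kb), Robo3 (20.6 against 3.30) and Slit2 (1.83 against 3.00). The other genes of the pathway, 48 in all, had 451 regions and 8.41 per 100 kb, with 14.0 in ephrins, 8.44 in intracellular effectors and 6.86 in further guidance ligands and receptors. The densest were Efna2 (31.9) and Efna1 (26.7), both ephrin-A ligands, and the netrin Ntn4 (24.3), and 4 of the 48 had no region (Efna3, Efna4, Efnb3 and Rnd1).

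**Figure D3:**
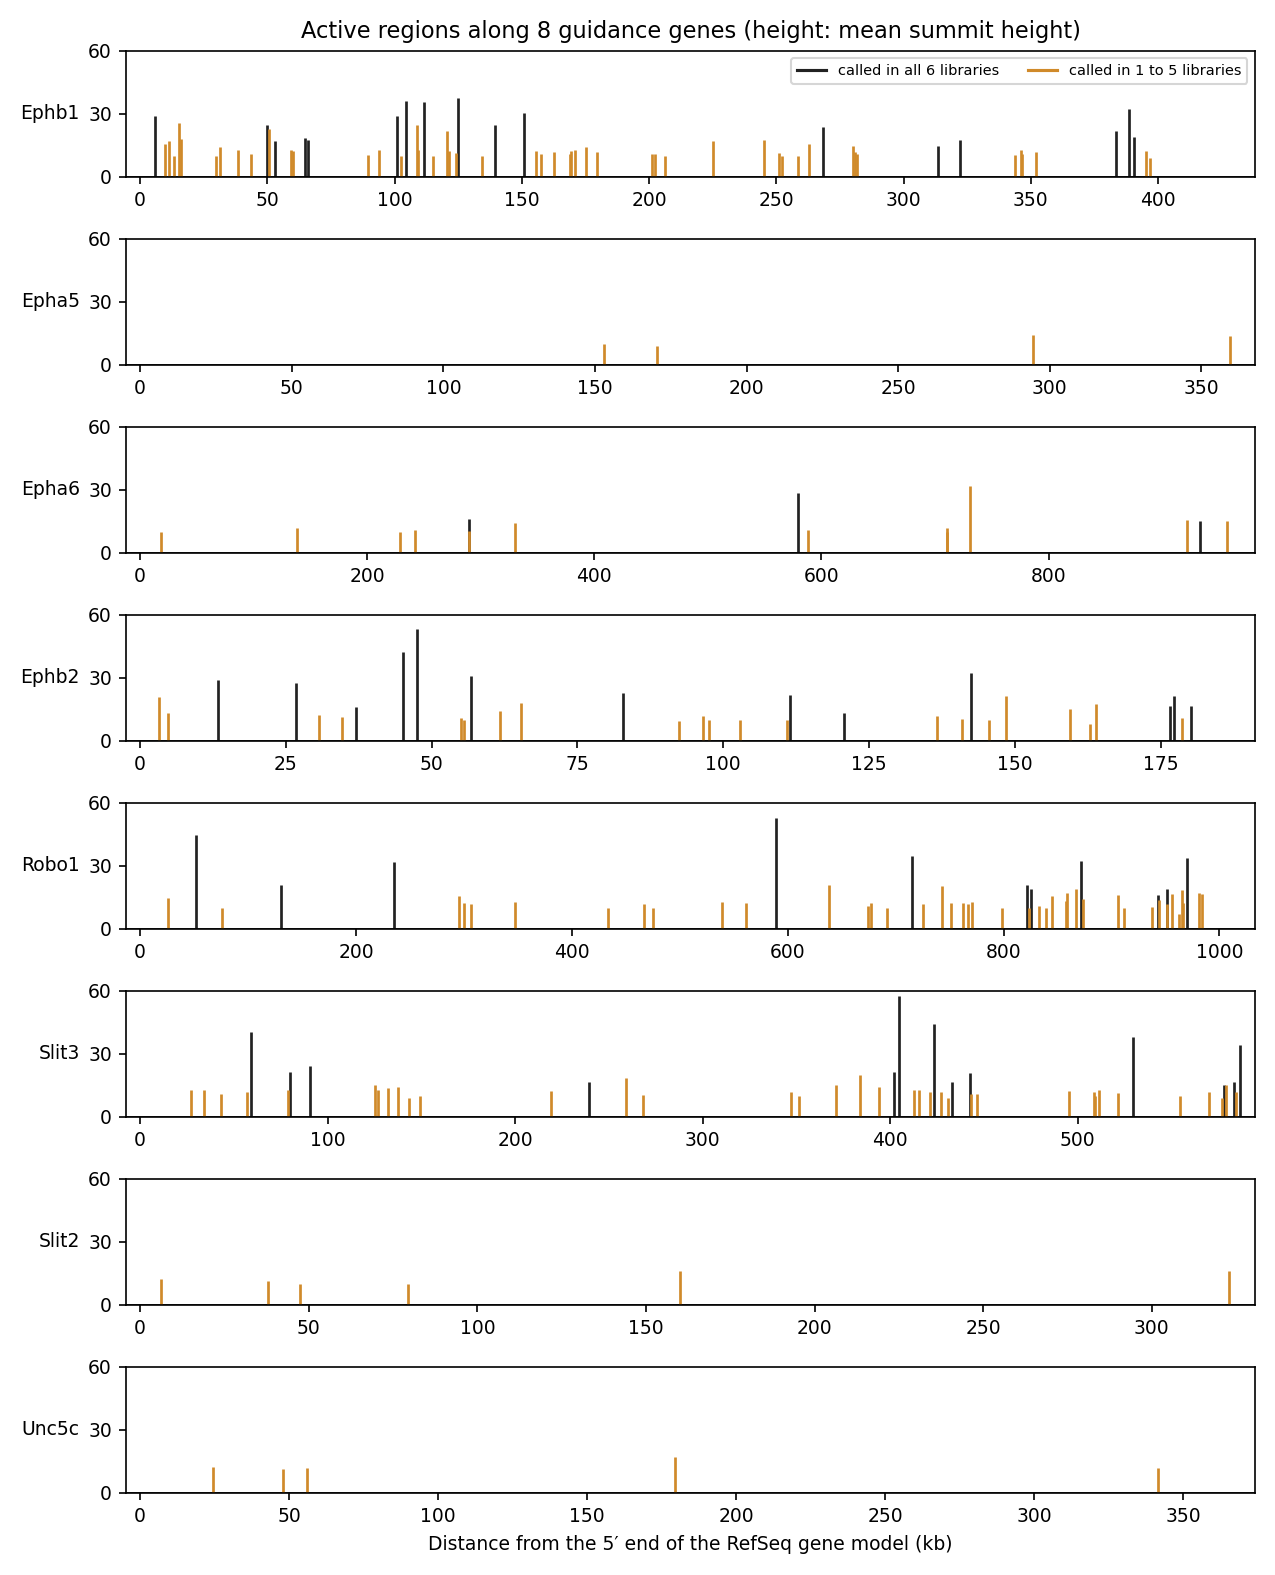
Each line is an active region of 1 of 8 members, at its distance in kb from the 5′ end of the RefSeq gene body (horizontal axis), with the mean summit height as its height (vertical axis). Dark lines were called in all 6 libraries and orange lines in 1 to 5; Ephb1 and Slit3 carry many, Epha5, Slit2 and Unc5c few.

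Regions lay more often in the 3′ than in the 5′ part of the genes, divided at the midpoint, as over all protein-coding genes. Of 533 regions in the bodies of the 45 members with a promoter entry, which gives their strand, 226 (42.4%) lay before the midpoint. Over all protein-coding genes this share was 44.5%, and over genes of 100 kb or more it was 47.0%. Single genes differed widely. Ephb1 had 44 of 65 before the midpoint, while Robo1 had 12 of 52, Slit3 18 of 49 and Robo2 17 of 47. Of the 642 regions, 6 also lay in another protein-coding gene.

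The highest region of any member was in Epha8 (chr4:136945593-136946509), with summit heights of 100, 81 and 65 in KCl libraries and 100, 112 and 82 in untreated libraries (mean 90.0). The next were in Sema3d (chr5:12410784-12411101, 100, 75 and 42 in KCl libraries, 79, 77 and 65 in untreated), with a mean of 73.0, and Sema4c (chr1:36555118-36555637, 74, 67 and 48 in KCl libraries, 71, 88 and 65 in untreated), with a mean of 68.8. Sema6b (chr17:56123179-56124736) had a mean of 64.5, from 76, 55 and 43 in KCl libraries and 72, 86 and 55 in untreated. Plxnb2 (chr15:89167281-89168014) had a mean of 59.0, from 66, 49 and 38 in KCl libraries and 55, 82 and 64 in untreated. In each of the 5 the 2 groups overlapped, and KCl replicate 3 was the lowest library. By side, the mean height of the regions called in all 6 libraries was 28.2 in receptors (97 regions) and 29.9 in ligands (55 regions). The difference was -1.75 ± 0.870 (SD over the 6 libraries), with receptors lower in all 6. The same regions were measured in every library, so this SD does not measure the spread between regions. Over every called region the difference was -0.212. There receptors were higher in untreated replicates 2 (22.3 against 21.9) and 3 (19.9 against 19.7), and lower in the other libraries. Over all member regions, the median of the mean heights was higher in receptors than in ligands.

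Over all members, called intervals were fewer on average with KCl, by less than the spread between the KCl libraries. Called intervals per 100 kb in the 54 genes were 3.49, 2.39 and 1.42 in KCl libraries and 3.51, 3.34 and 2.77 in untreated libraries, so the groups overlapped. The means were 2.43 ± 1.04 with KCl and 3.21 ± 0.387 without it (SD, n = 3 each). The difference was -0.777 (exact permutation p = 0.3, two-sided, where 0.1 is the smallest p that 3 against 3 allows). Within libraries of the same replicate number, KCl was lower in 3 of 3 pairs for all members and for ligands, and in 2 of 3 for receptors (exact sign-flip p = 0.25, 0.25 and 0.5, where 0.25 is the smallest possible). Without KCl replicate 3 the difference was -0.270, and without KCl replicate 1 it was -1.31. With the 34834 highest intervals of every library, the values were 1.45, 1.58 and 1.42 with KCl and 1.58, 1.51 and 1.52 without it, a difference of -0.0551 (exact permutation p = 0.5).

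The change with KCl did not differ detectably between receptors and ligands. Receptors had 3.19, 2.12 and 1.33 intervals per 100 kb in KCl libraries and 3.13, 3.03 and 2.52 in untreated libraries (exact permutation p = 0.4). Ligands had 4.15, 2.97 and 1.61 in KCl libraries and 4.35, 4.03 and 3.32 in untreated libraries (exact permutation p = 0.3). The log2 ratio of receptors to ligands was -0.38, -0.49 and -0.28 with KCl and -0.48, -0.41 and -0.40 without it (exact permutation p = 0.5). The share of all intervals that lay in members was 0.496% ± 0.0214 with KCl and 0.493% ± 0.0160 without it (SD, n = 3 each, exact permutation p = 0.9).

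**Figure D4:**
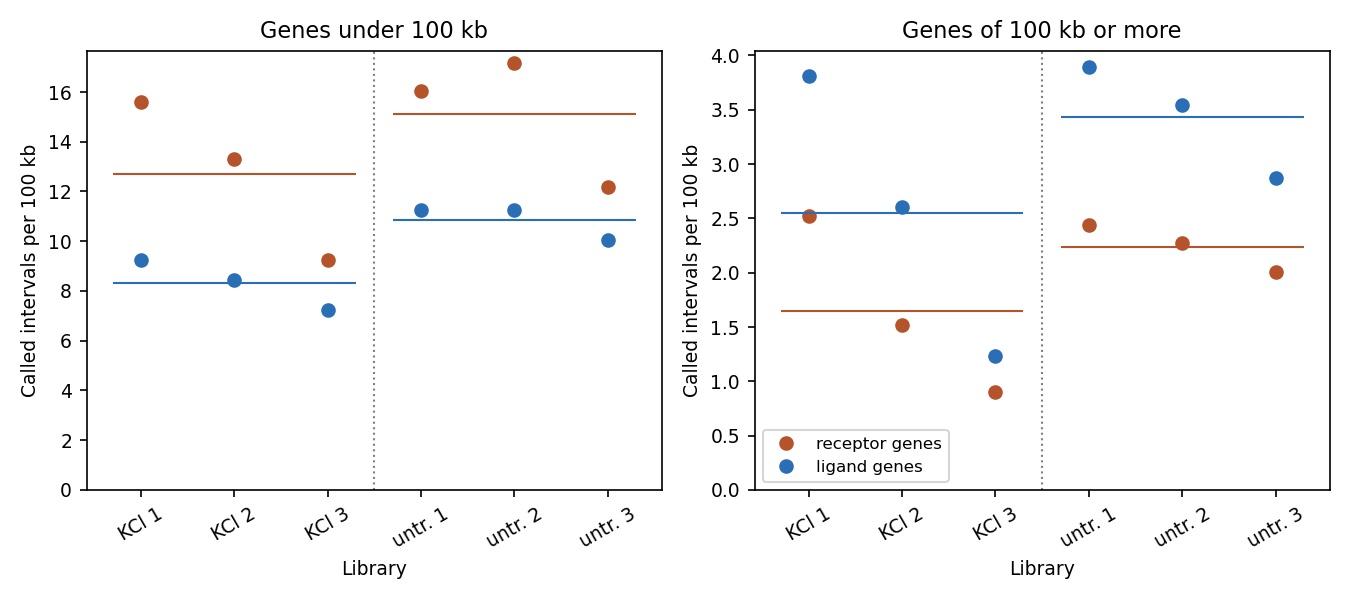
Called intervals per 100 kb (vertical axis) in each library, for receptor and ligand genes under 100 kb (left) and of 100 kb or more (right). Points are libraries and lines are group means; receptors lie above ligands on the left and below them on the right in all 6 libraries.

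Within the length split, ligands under 100 kb had 9.24, 8.44 and 7.24 intervals per 100 kb in KCl libraries and 11.3, 11.3 and 10.0 in untreated libraries. Every KCl library was below every untreated one (exact permutation p = 0.1, the smallest possible), and this split was chosen after the data were seen. Receptors under 100 kb averaged 12.7 ± 3.20 with KCl and 15.1 ± 2.60 without it (SD, n = 3 each, exact permutation p = 0.4). In genes of 100 kb or more, receptors averaged 1.65 ± 0.816 with KCl and 2.24 ± 0.219 without it, and ligands 2.55 ± 1.29 and 3.44 ± 0.519 (exact permutation p = 0.4 for both).

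Single genes and regions gave few differences. Of the 36 members with at least 5 regions, Unc5b had fewer intervals in every KCl library than in every untreated one (8, 8 and 6 with KCl, 10, 11 and 9 without it), which is 2.78% of them, against 3.95% of such genes overall. None had more, against 0.0231% overall. Unc5b encodes a repulsive netrin receptor. At the level of regions, 2 of 642 had a call in every untreated library and none with KCl, which is 0.312%, against 1.01% of all regions. They lay in Ephb1 (chr9:102008488-102008835, summit heights 10, 13 and 16) and in Unc5a (chr13:54961768-54962153, heights 14, 12 and 14). None had the opposite pattern, against 0.0367% overall.

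For the height of the signal, 126 member regions from 43 genes entered a fit with limma across 20537 regions called in all 6 libraries. None passed an adjusted p of 0.05 in either direction (0% of all regions did in either), and the lowest adjusted p among members was 0.932 by limma with Benjamini-Hochberg adjustment. At an unadjusted p below 0.05, 0 member regions were higher and 3 lower (0% and 2.38%), against 0% and 1.12% of all regions. The median change over all regions was -0.25 on the log2(height + 1) scale. It was -0.02 without KCl replicate 3 (31004 regions tested) and -0.46 without KCl replicate 1 (20796 regions tested). In the fit without KCl replicate 1, 26 of 125 member regions and 4325 of 20796 regions were lower at an unadjusted p below 0.05 by limma. In that without KCl replicate 3, they were 1 of 181 and 186 of 31004. The cause was not tested. Changes below are given relative to the median of each library, a centring that also removes any change shared by all regions. After this centring, 4 member regions were higher and 5 lower with KCl at an unadjusted p below 0.05 by limma (3.17% and 3.97% of 126), against 1.97% and 1.67% of all regions. In 6 member regions the centred height of every KCl library was above every untreated one and in 4 below (4.76% and 3.17%), against 4.67% and 3.89% of all regions. The mean over the 152 member regions called in all 6 libraries was 26.6 ± 7.97 with KCl and 31.0 ± 3.72 without it (SD, n = 3 each, exact permutation p = 0.5), with a difference of -0.576 without KCl replicate 3.

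The member regions with the lowest unadjusted p in each direction were named whatever their size. Higher with KCl, an Unc5a region (chr13:55003060-55003667) had summit heights of 34, 25 and 24 in KCl libraries and 21, 27 and 14 in untreated libraries. Its relative log2 change was 0.69 ± 0.22 (SE, adjusted p by limma after centring 1.00). A Plxna1 region (chr6:89356528-89357117) had 40, 34 and 29 in KCl libraries and 31, 34 and 18 in untreated libraries (0.59 ± 0.20), and an Ntn1 region (chr11:68291986-68292484) had 36, 27 and 18 in KCl libraries and 24, 26 and 17 in untreated libraries (0.48 ± 0.21). In the deposited heights the groups overlapped in all 3, and after median centring every KCl library was above every untreated one in all 3. A Slit3 region (chr11:35650744-35651249) followed at 0.36 ± 0.17 and an Ephb1 region (chr9:101964152-101964529) at 0.49 ± 0.25. After centring, the groups did not overlap in the Slit3 region and overlapped in the Ephb1 region.

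Lower with KCl were 2 regions of Robo2 (chr16:74068840-74069315 and chr16:74720803-74721342). The first had summit heights of 24, 13 and 15 in KCl libraries and 38, 27 and 28 in untreated libraries, which did not overlap in the deposited heights but did after median centring. Its relative log2 change was -0.58 ± 0.23 (SE). The second had 31, 17 and 13 in KCl libraries and 38, 26 and 37 in untreated libraries, with a relative log2 change of -0.52 ± 0.22. They were followed by regions in Sema6d (chr2:124620555-124620918, -0.38 ± 0.17), Ephb4 (chr5:137372211-137372796, -0.50 ± 0.23) and Ephb1 (chr9:102242938-102243376, -0.39 ± 0.19). After centring, every KCl library was below every untreated one in the Sema6d and Ephb4 regions, and the groups overlapped in the second Robo2 region and the Ephb1 region. All 10 kept their direction in each fit without 1 library that included them, and the Ephb1 region that was higher with KCl did not enter the fit without KCl replicate 1. The 10 were picked by p from these same libraries, so direction and separation after centring were largely fixed by the choice. They are no independent support for a change. Their sizes moved with single libraries. Without KCl replicate 2 the first Robo2 region was at -0.36 and the higher Ephb1 region at 0.79, and without KCl replicate 3 the lower Ephb1 region was at -0.20 (relative log2 changes). None passed the adjusted threshold, and in the raw heights KCl replicate 1 was the highest KCl library in each of the 10.

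**Figure D5:**
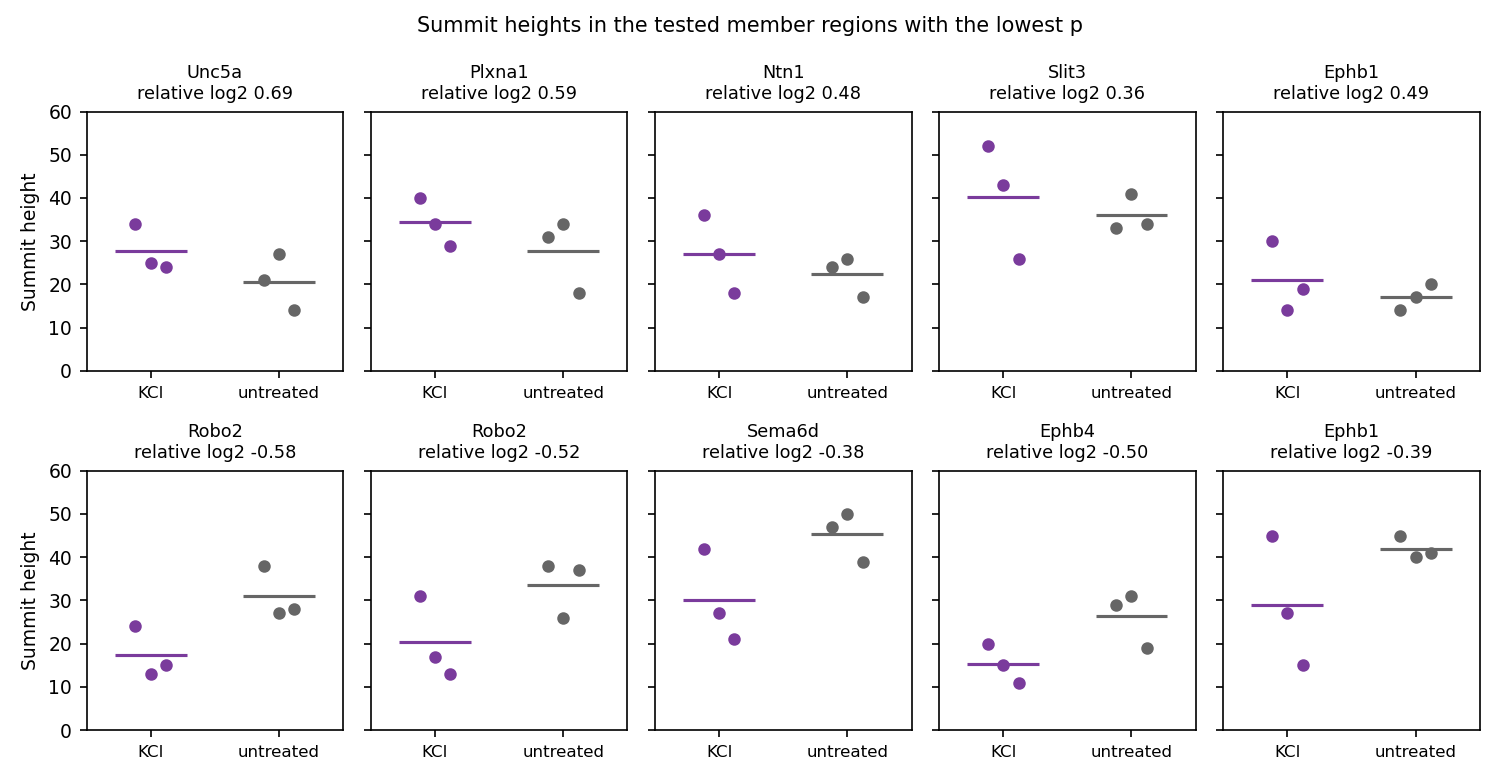
Summit heights (vertical axis) in the 10 member regions with the lowest unadjusted p, 5 higher with KCl (top row) and 5 lower (bottom row). Points are libraries, KCl left and untreated right, horizontal lines are group means, and the figure in each title is the relative log2 change from limma; none passed the adjusted threshold of 0.05.

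The direction of the relative changes differed between some families, in small counts of regions. Over the 126 tested regions 58 were higher and 68 lower relative to the median, with a median relative log2 change of -0.03. The split was 74 higher and 56 lower of 130 regions without KCl replicate 2, and 106 and 75 of 181 without KCl replicate 3. Over all 20537 tested regions the median was 0.0055, and the split was not computed. Receptors had 34 higher and 46 lower (median -0.05) and ligands 24 higher and 22 lower (0.02). Of the 18 tested Robo regions 3 were higher and 15 lower (median -0.09), of the 10 EphA regions 8 were higher and 2 lower (0.10), and the 5 regions of class 5 semaphorins were all higher (0.30). These families were named after their values were seen, and 4 of the 5 class 5 regions lay in Sema5b. Other families were more even, with 13 higher and 16 lower in EphB receptors, 7 and 6 in plexins, and 5 and 5 in slits. These counts take no account of regions that share a library, so they carry no test. Among the 17 members with at least 3 tested regions, 0 had a mean centred height that was above, or below, every untreated library in every KCl library, against 4.36% and 4.28% of all such genes. The other pathway genes had 78 tested regions, 38 higher and 40 lower, and none passed the adjusted threshold.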

How the data were processed

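The 6 MeDIP libraries (3 KCl, 3 untreated) were analysed, and the pooled input library was not analysed here. Library preparation and data analysis were done by a service company, per the labels' protocols. The submitters' processing notes name BWA, SICER and the build mm10, without versions. Caller settings and filters on reads, and the totals of reads, are not given in the sources used. The deposited file held 13 tracks, per the file headers, with called intervals and summits for each library and 1 track of active regions. Of the 133337 active regions, 133311 equalled a merge of the intervals of the 6 libraries. Summit heights deposited by the authors are whole numbers from 6 to 421. The column that holds this signal also holds names, and its unit was recorded as other. Whether heights were scaled between libraries is not stated. No per-sample column was left unused.

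Gene bodies came from RefSeq GRCm38.p6, whose coordinates are those of mm10. The member genes and lists were chosen with earlier results of these data known. An active region counted for a gene if it overlapped the body or 1 kb on either side by at least 1 base. Density is regions or intervals divided by that window. Named with values were the densest and sparsest member of each family (all in families of 3 or fewer), the 5 densest members and the 5 with the most regions, the 5 highest regions, and the 5 tested regions per direction with the smallest p, ranked after median centring. The other members are given with their densities, and the 3 densest other pathway genes are named. Efna3, Efna4, Efnb3 and Rnd1, which have no region, fall outside that rule. So do some values printed for single genes, such as Epha5, Slit2 and Unc5b, which were chosen after their values were seen.

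For regions called in every library, log2(height + 1) was used. After removal of regions whose mean height was under the 25th percentile, limma 3.58.1 (R 4.3.3) was run with a trended variance and Benjamini-Hochberg adjustment over all tested regions. Fold changes on this log2 scale understate changes of low regions. Single values per library were compared by an exact permutation test, two-sided. Nothing in the labels says that replicates are separate cultures, so p-values reflect only how these libraries vary, and that variation may be technical. KCl and untreated libraries that share a replicate number deviated together (correlations of 0.110, 0.113 and 0.152, against -0.0887 to -0.0189 for different numbers). By the limit of 0.1, sign-flip tests over pairs and a limma fit with a replicate block were therefore run as well. The main limma fits, the ranking of regions and the permutation tests did not use the pairing. The meaning of a replicate number is not stated. Other settings tried were the flank, the overlap, a stricter height, equal numbers of intervals, the pseudocount, the filter, centring, the replicate block and leaving out each library. The limma steps were tested on simulated data.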

Additional observations from a re-analysis of the deposited data

How the results depend on the processing

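The density of regions was 4.47 per 100 kb in receptors and 6.34 in ligands. It was 1.63 and 1.99 for regions with a height of at least 20, and 1.11 and 1.38 for regions called in all 6 libraries. In genes of 100 kb or more it was 3.60 in receptors, and in genes under 100 kb 20.8 and 14.1, both splits chosen after the data were seen. The ratio of receptors to ligands, 0.705, was 0.818 with heights of at least 20, 0.803 with regions called in all 6 libraries, 0.626 without Ephb1, Robo1 and Slit3, 0.617 in genes of 100 kb or more and 1.48 in genes under 100 kb, where the order turned. Leaving out 1 library gave densities of 4.08 to 4.47 in receptors and 5.64 to 6.34 in ligands, and a ratio of 0.687 to 0.740. The difference in height between receptors and ligands was -0.212 over every called region. The log2 ratio of interval densities, KCl minus untreated (0.05), was -0.0328 with heights of at least 20 and -0.00178 with equal numbers of intervals, and -0.00517 to 0.0994 when 1 library was left out. The share of intervals in members, KCl minus untreated (0.00262 percentage points), was -0.0201 with equal numbers and -0.00778 to 0.0136 when 1 library was left out. The difference in mean height was 0.0159 of the library median with heights scaled by it, and -8.52 to -0.576 when 1 library was left out. The interval difference with KCl was -1.31 to -0.270 in members, -1.17 to -0.239 in receptors and -1.61 to -0.340 in ligands when 1 library was left out, and -0.0551, -0.0535 and -0.0587 with equal numbers of intervals. The cause of these shifts was not tested. With the replicate block, 0 member regions were called (lowest adjusted p 0.857 by limma, 0.790 after centring), and the block changed no other call, but 3 pairs cannot give a sign-flip p under 0.25. The lowest adjusted p when 1 library was left out was 0.184, without KCl replicate 1. Read depth is unknown, so weak regions in a shallow library cannot be told from absent ones.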
